A study of Homo sapiens with 6 samples.

Results

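MALAT1, NEAT1, KCNQ1OT1, NORAD, OIP5-AS1, PVT1, TUG1 and MEG3 are long noncoding RNAs, grouped here as nuclear and studied mainly for what they do as RNA. They were chosen by name, with no measured value used, and are 8 of the 60649 gene rows of the deposited count table. In GENCODE 44, 7 of the 8 are of the type lncRNA, and TUG1 is listed as protein-coding. All 8 rows were found, and 7 of them passed the filter on low counts. MEG3 did not.

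The libraries came from OVCAR5, a human cell line established from ovarian cancer. In 3 libraries the cells carried a lentiviral METTL3 construct (METTL3-overexpressing) and in the other 3 an empty lentiviral vector (vector control). Cells of both groups were transduced, selected with puromycin and kept as stable lines, and the labels name no drug given before harvest. The promoter of the construct, the number of clones behind each line, and whether the 3 replicates were separate cultures are not given in the sources used here, so p-values measure the spread between these libraries. The labels' design text calls the control samples parental, whereas the treatment text gives them the empty vector. RNA was taken from whole cells and selected for poly(A), so neither the nuclear share of a transcript nor its m6A was measured here, and the word nuclear is a name for these RNAs and not a reading.

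METTL3 is the catalytic subunit of the complex that writes N6-methyladenosine (m6A) on RNA within the DRACH motif. Long nuclear RNAs such as MALAT1 are among the known carriers of m6A. MALAT1 gathers in nuclear speckles, NEAT1 is the scaffold of paraspeckles, and KCNQ1OT1 is transcribed antisense to KCNQ1 and silences imprinted neighbours on its own chromosome. NORAD holds the RNA-binding protein PUM2 and is known as a largely cytoplasmic RNA. OIP5-AS1, also called Cyrano, binds the microRNA miR-7 and is likewise abundant outside the nucleus. PVT1 lies beside MYC, TUG1 is found in both compartments, and MEG3 is an imprinted RNA that many cancer lines have lost.

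The 3′ ends are shown first, because a library selected for poly(A) depends on them. MALAT1 and the long form of NEAT1 are not polyadenylated at their mature ends. RNase P cuts them there, and an A-rich stretch folds back on U-rich stretches to protect the end. The short form of NEAT1 has a poly(A) tail, and the counts add both forms. Below are 60 bases of each, read from GENCODE 44 transcripts on the plus strand of GRCh38. The stretch of NEAT1 is chr11:65445481-65445540, the annotated end of its longest transcript, and that of MALAT1 is chr11:65506057-65506116, inside its annotated exon. Capitals mark the last 11 bases, which were the longest run ending NEAT1 that recurred in MALAT1, and a further run of 16 bases that both windows hold.
MALAT1: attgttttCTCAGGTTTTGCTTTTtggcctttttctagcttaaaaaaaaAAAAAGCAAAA
NEAT1: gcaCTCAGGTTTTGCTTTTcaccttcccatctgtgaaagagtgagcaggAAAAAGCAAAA
The 11-base run was found at 2 places in MALAT1 and in 98 (0.524%) of 18703 lncRNA transcripts of at least 200 bases. These 98 include MALAT1 and NEAT1. The 16-base run, read off the same 2 windows, was in 2 of the 18703 transcripts, MALAT1 and NEAT1 themselves. They alone held both runs within 60 bases. Of 20002 protein-coding transcripts 262 held the 11-base run and 0 the 16-base run.

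Some members carry the signal that directs polyadenylation near their annotated end. This hexamer, AATAAA or ATTAAA, was searched on the transcript strand within the last 60 bases of the longest transcripts. It was found in NORAD, OIP5-AS1, PVT1 and TUG1, and not in MALAT1, NEAT1, KCNQ1OT1 and MEG3. The window of MALAT1 lies past the stretch shown above, and that of NEAT1 ends the long form. Other ends of these RNAs were not searched. The hexamers were in the last 60 bases of 47.7% of lncRNA and 72.8% of protein-coding transcripts. The ends of NORAD, OIP5-AS1 and TUG1 follow with the hexamers in capitals, for NORAD at chr20:36045618-36045677 on the minus strand, OIP5-AS1 at chr15:41306480-41306539 on the plus strand and TUG1 at chr22:30979336-30979395 on the plus strand.
NORAD: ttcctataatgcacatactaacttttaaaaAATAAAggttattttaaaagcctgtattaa
OIP5-AS1: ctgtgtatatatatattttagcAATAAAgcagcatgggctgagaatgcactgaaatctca
TUG1: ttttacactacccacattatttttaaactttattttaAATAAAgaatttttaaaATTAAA
A match describes the letters of the window and not where a tail was added in these cells.

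NORAD is known for repeated copies of TGTANATA, a motif that PUM2 binds. Its transcript of 5401 bases held 15 copies on its own strand, or 2.78 per kb, against 0.106 per kb over all lncRNA transcripts. At least 1 copy was found in 11.8% of lncRNA transcripts, and 11 of them held 10 or more. KCNQ1OT1 held 9 in 91667 bases, NEAT1 6, TUG1 2, OIP5-AS1 and MEG3 1 each, and MALAT1 and PVT1 0. Shown are 5 of the NORAD copies with 8 bases on each side, in the order of the transcript and with the element in capitals.
NORAD at chr20:36050185-36050208: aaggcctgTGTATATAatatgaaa
NORAD at chr20:36049806-36049829: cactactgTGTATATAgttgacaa
NORAD at chr20:36049705-36049728: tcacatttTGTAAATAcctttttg
NORAD at chr20:36049121-36049144: taccacttTGTAAATAtctttttg
NORAD at chr20:36047974-36047997: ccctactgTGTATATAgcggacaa

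MALAT1 had many copies of another motif. GGACT, the core of the best known m6A sites, occurred 17 times in its 10434 bases on the transcript strand, or 1.63 per kb, against 0.98 per kb over all lncRNA transcripts. Its densest stretch of 400 bases held 5 of them, between transcript bases 2526 and 2852, and these are shown with 8 bases on each side and the motif in capitals.
MALAT1 at chr11:65500165-65500185: tactaaaaGGACTggtgtaat
MALAT1 at chr11:65500266-65500286: aatgtgaaGGACTttcgtaac
MALAT1 at chr11:65500328-65500348: tttgcattGGACTttgagtta
MALAT1 at chr11:65500362-65500382: aatcctgaGGACTagcattaa
MALAT1 at chr11:65500471-65500491: tgaagctaGGACTgaggagca
PVT1 had 1.63 per kb from 4 copies, MEG3 1.23, TUG1 0.937, KCNQ1OT1 0.862, NEAT1 0.835, OIP5-AS1 0.788 and NORAD 0.37. The wider DRACH motif was less uneven, between 16.05 per kb in NEAT1 and 24.9 per kb in KCNQ1OT1, around a median of 20.1 over lncRNA transcripts. Whether any of these sites carried m6A was not measured.

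**Figure D1:**
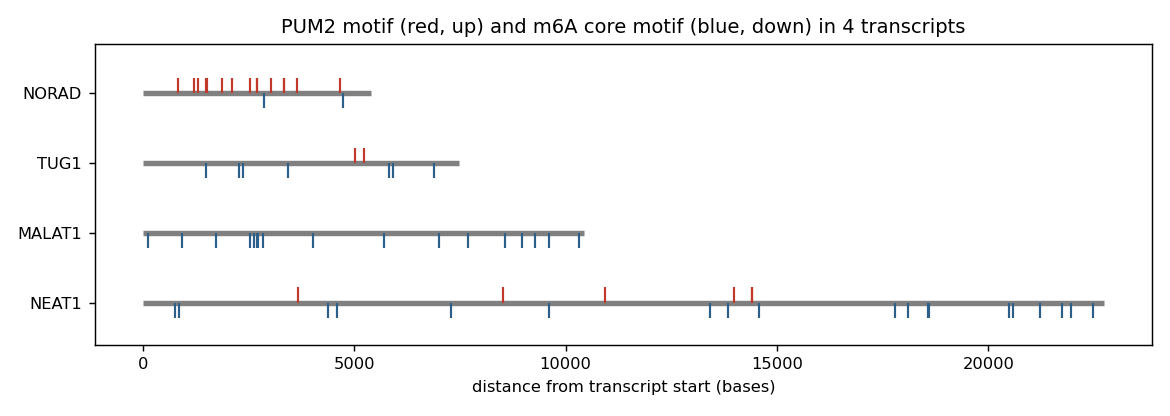
Positions of TGTANATA (red ticks, upwards) and GGACT (blue ticks, downwards) along the longest transcripts of NORAD, TUG1, MALAT1 and NEAT1, by distance in bases from the transcript start. NORAD carries 15 red ticks in 5401 bases, and MALAT1 carries 17 blue ticks and 0 red ones. The line of MALAT1 is its annotated transcript of 10434 bases, which runs past the stretch shown in the text, ending at base 8477.

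Depth was high and similar in the 6 libraries, from 96633925 to 125463386 counts, of which the 8 RNAs took between 0.174% and 0.244%. The 7 RNAs that passed the filter had 861 or more counts in every library. Among low counts, from 1 to 20, the share of even numbers was 67.6% to 70.5% in each library, so counts divided by 2 were tested as well. The labelled epithelial cell type was checked with 8 epithelial markers, which lay between 74.8 (CLDN7) and 5151 CPM (KRT8). Of 10 markers of other cell types, COL1A1 reached 8.04 to 18.1 CPM, the rest were under 0.7 CPM, and PTPRC, CD3E, CD68, DCN and NCAM2 were at 0 in at least 1 library. CPM are counts scaled to a common library total with edgeR's TMM factors. The labels were checked on METTL3 itself, which reached 152, 165 and 175 CPM in replicates 1, 2 and 3 of the METTL3-overexpressing cells but 80.6, 68.6 and 71.6 CPM in those of the vector control. Its log2 fold change was 1.16 with a standard error of 0.117 (edgeR's quasi-likelihood test, adjusted p = 0.072). The METTL3 groups did not overlap, with p = 0.1 in a two-sided exact permutation test, the smallest p that 3 against 3 libraries allow.

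Levels between the RNAs were set per length, as CPM per kilobase of merged exons (RPKM). MALAT1 and the long form of NEAT1 lack a poly(A) tail at their mature ends. In libraries selected for poly(A) the order of levels need not be that in the cells. NORAD had the highest level at 84.0 ± 9.41 RPKM (mean ± SD, n = 6 libraries). It was followed by MALAT1 at 59.1 ± 35.4, TUG1 at 32.5 ± 2.68 and NEAT1 at 18.9 ± 3.66 RPKM. OIP5-AS1 was lower at 5.73 ± 0.283, PVT1 at 0.721 ± 0.0606, KCNQ1OT1 at 0.135 ± 0.0545 and MEG3 at 0.00306 ± 0.00271 RPKM. The ranges of neighbours in this order did not overlap from TUG1 downwards. NORAD was above MALAT1 in 5 of 6 libraries, and their ranges overlapped, as did those of MALAT1 and TUG1. The choice of length moved 3 of them. On the longest transcript instead of merged exons TUG1 was at 44.1, OIP5-AS1 at 14.4 and PVT1 at 7.48 RPKM. The order of the means was the same on that scale. MALAT1 was then above TUG1 in only 2 of 6 libraries and NEAT1 above OIP5-AS1 in 5 of 6. For NEAT1 both lengths, 22767 and 22743 bases, were those of the long form, whereas its counts add a shorter form too. Its level per length would be higher on the short form, which was not computed, so its place in this order is not settled. For MALAT1 both lengths were 10434 bases, whereas the stretch shown above ends at transcript base 8477. If RNase P cuts there, the level of MALAT1 per length may be higher, which was not computed. Its order against NORAD and TUG1 is therefore not settled either. For 5 of the 8 the identifier version in the table was not that of GENCODE 44, so the gene models behind the counts may have had other lengths.

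The first RNAs described are those known from nuclear bodies. MALAT1 (chr11:65497640-65508073, plus strand, GRCh38) had 736, 358.5 and 428 CPM in replicates 1, 2 and 3 of the METTL3-overexpressing cells. Replicates 1, 2 and 3 of the vector control had 1321, 460.3 and 399.9 CPM. Replicate 1 was the highest library of each group, and the groups overlapped. The highest library was 3.68 times the lowest. Over the 6 libraries the coefficient of variation was 59.9%, larger than that of 99.8% of the 10031 genes with a mean of at least 10 CPM, whose median was 13.2%.

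NEAT1 (chr11:65422774-65445540, plus strand), the neighbour of MALAT1 on chromosome 11, went the other way. Replicates 1, 2 and 3 had 317, 419 and 491 CPM in METTL3-overexpressing cells and 356, 539 and 454 CPM in vector control cells. Replicate 1 was the lowest library of each group. MALAT1 was above NEAT1 in replicate 1 of both groups and below it in the other 4 libraries, on the CPM scale, which does not correct for length.

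KCNQ1OT1 (chr11:2597308-2700003, minus strand) is the silencing RNA of the imprinted KCNQ1 domain. Replicates 1, 2 and 3 had 20.6, 10.4 and 8.53 CPM in METTL3-overexpressing cells and 16.9, 9.58 and 8.78 CPM in vector control cells. Replicate 1 again held the highest value of each group, at about the same height in both. Its coefficient of variation of 40.5% was above that of 98.5% of genes at this level.

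The RNAs known from the cytoplasm or from both compartments varied less than MALAT1, NEAT1 and KCNQ1OT1, but so did PVT1, which is described below. Coefficients of variation were 11.2% for NORAD, 8.26% for TUG1 and 8.40% for PVT1, against 19.4% for NEAT1. NORAD (chr20:36045618-36051018, minus strand) had 469, 494 and 487 CPM in the METTL3-overexpressing libraries, against 354, 459.8 and 457 CPM in the vector control libraries, in the order of the replicates. Every METTL3-overexpressing library was above every vector control library, and vector control replicate 1 was the lowest. OIP5-AS1 (chr15:41283958-41322392, plus strand) had 129, 138 and 131 CPM in the former and 129, 119.8 and 123 CPM in the latter, which overlapped. Its coefficient of variation of 4.95% was smaller than that of all but 5.07% of genes at 10 CPM or more. TUG1 (chr22:30969245-30979395, plus strand) had 366, 329 and 310.4 CPM in METTL3-overexpressing and 289.9, 350.5 and 332 CPM in vector control replicates, so that its highest and lowest libraries were both replicate 1.

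The last pair were low. PVT1, the neighbour of MYC (chr8:127794526-128187101, plus strand), had 18.6, 15.8 and 18.2 CPM in METTL3-overexpressing and 20.5, 18.1 and 18.9 CPM in vector control replicates. The groups overlapped. MEG3 (chr14:100779410-100861031, plus strand) had 4, 13 and 0 counts with METTL3 and 17, 6 and 6 counts with the vector. The count of 0 in replicate 3 allows up to 3 counts, or 0.0297 CPM, and covers counting error only. MEG3 was fitted only in alternatives, and with no filter on low counts its log2 fold change with METTL3 was -0.92 with a 95% interval from -2.54 to 0.69 (edgeR, adjusted p = 0.723). A difference between groups was not detectable at such counts.

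**Figure D2:**
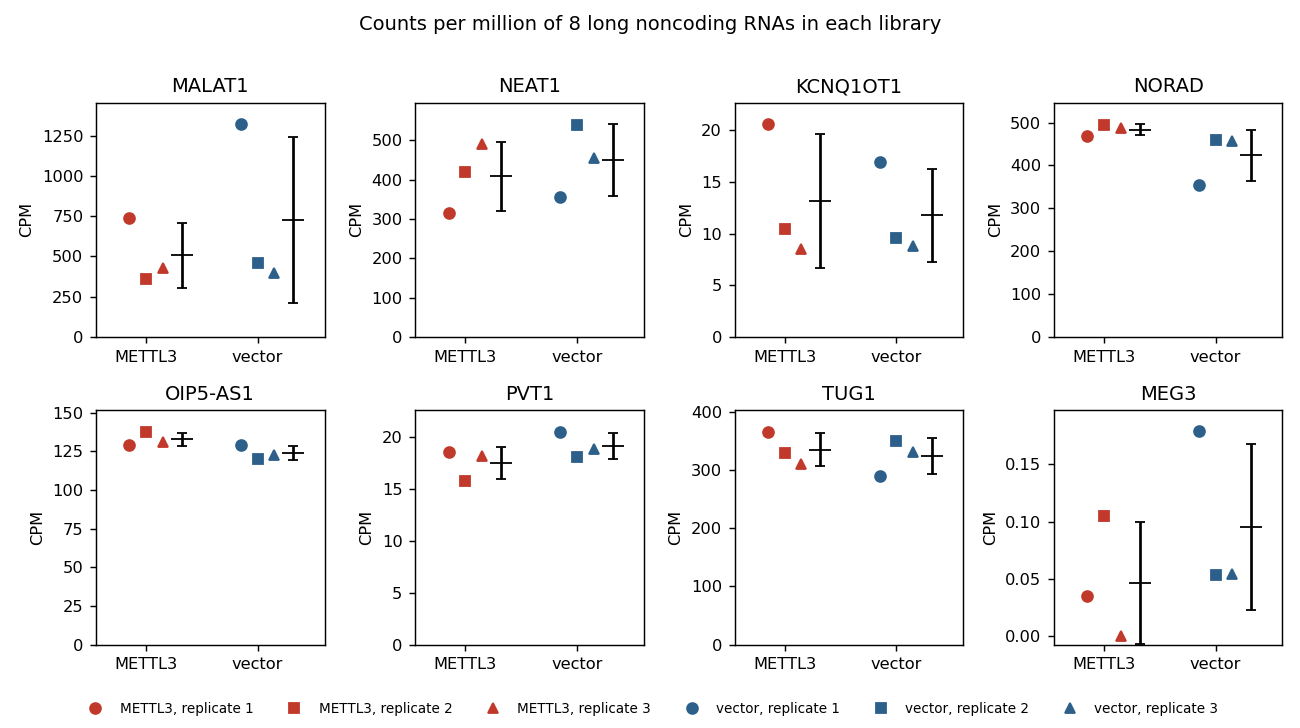
CPM of the 8 RNAs in each library, METTL3-overexpressing in red and vector control in blue, with replicates 1, 2 and 3 as circles, squares and triangles and the group mean ± SD (n = 3) in black. Circles stand highest for MALAT1 and KCNQ1OT1 and lowest for NEAT1 in both groups, and MEG3 is near 0.

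Some of these RNAs share exon bases with other genes, and the sources used here do not give the strand setting of the counting or how reads in several genes were treated. Of 32 genes of the table that share exon bases with a member, 28 had 0 counts in all libraries. These include every such gene inside MALAT1, NEAT1, TUG1 and MEG3. Leaving out reads that fall in several genes can also give a 0, so it does not show that these genes were silent. Genes of the table share 14.4% of the exon bases of TUG1 and 7.31% of those of MALAT1. TALAM1, the antisense partner of MALAT1, shares 8121 exon bases with it, or 77.8% of those of MALAT1. It has no row in the count table and was not analysed here. KCNQ1, which shares 121 exon bases with KCNQ1OT1 on the opposite strand, had 22.4, 12.3 and 10.5 CPM in METTL3-overexpressing replicates 1, 2 and 3, against 9.01, 12.96 and 11.4 CPM in those of the vector control. Its only high library was METTL3-overexpressing replicate 1, whereas KCNQ1OT1 was high in both replicates 1. OIP5, which shares 759 exon bases with OIP5-AS1 on the opposite strand, lay between 4.96 and 8.31 CPM, and NUSAP1, on the same strand, between 0.508 and 0.797 CPM. For these reasons reads in shared bases are uncertain in every RNA that has them, KCNQ1OT1 and OIP5-AS1 among them. If strand was ignored, reads of TALAM1 could be counted as MALAT1, and those of unspliced KCNQ1 as KCNQ1OT1.

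The study's own question is what METTL3 overexpression does to the transcriptome, and for these RNAs the answer over all 6 libraries was no call. With edgeR's quasi-likelihood test and Benjamini-Hochberg adjustment over 22038 genes, 0 of the 7 tested RNAs passed an adjusted p of 0.05, beside a background of 0% of all genes. At an unadjusted p under 0.05 there were also 0 of the 7, beside 8.3% of all genes (1830). DESeq2 called 283 genes (1.28%) and 0 of the 7. The 7 log2 fold changes ran from -0.52 for MALAT1 to 0.19 for NORAD, with a median of 0.05, and the median of all tested genes was -0.02.

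The intervals give the sizes of change that these libraries leave possible. MALAT1 had a log2 fold change of -0.52 with a standard error of 0.461 and a 95% interval from -1.57 to 0.54 (edgeR, adjusted p = 0.749). It was 0.24 without vector control replicate 1. For KCNQ1OT1 the value was 0.17 with an interval from -0.67 to 1.00 (adjusted p = 0.907 by edgeR), and for NEAT1 -0.14 from -0.60 to 0.33 (adjusted p = 0.852 by edgeR). The remaining 4 were held more tightly. NORAD was at 0.19 from -0.12 to 0.50, OIP5-AS1 at 0.10 from -0.13 to 0.33, TUG1 at 0.05 from -0.24 to 0.34 and PVT1 at -0.13 from -0.42 to 0.16, with adjusted p from 0.69 to 0.924 in edgeR's test. NORAD was the only tested RNA whose groups did not overlap, beside 17.4% of all tested genes. Without vector control replicate 1 its value was 0.08.

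Libraries of replicates 2 and 3 alone were closer to each other. There 3362 of 22046 genes (15.2%) passed in edgeR's test, but again 0 of the 7 RNAs. OIP5-AS1 came nearest, with a log2 fold change of 0.15 (edgeR, adjusted p = 0.0823), and MALAT1 was at -0.13 (edgeR, adjusted p = 0.387).

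**Figure D3:**
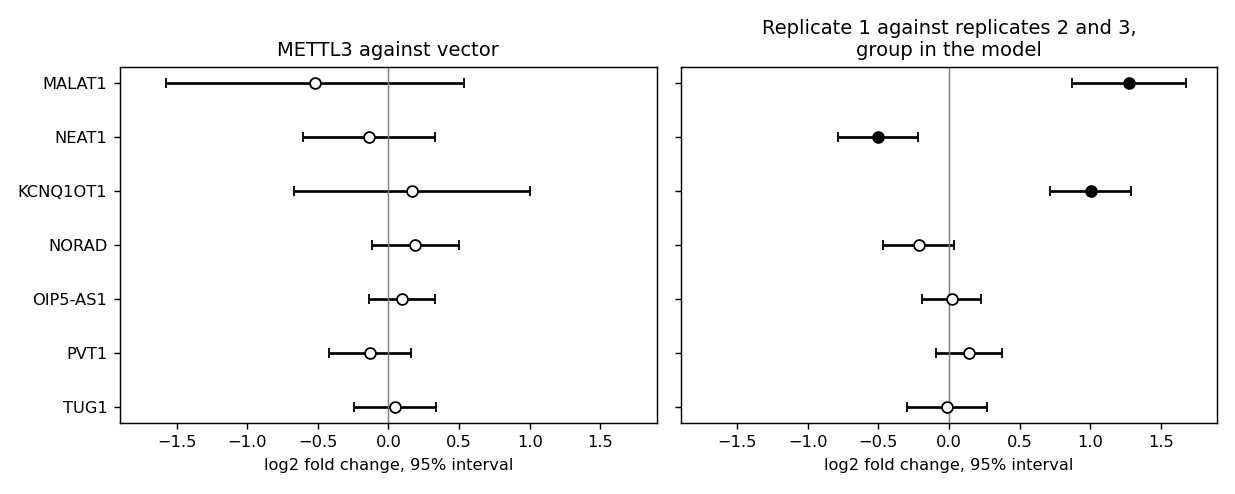
Log2 fold change of the 7 tested RNAs between METTL3-overexpressing and vector control libraries (left) and between replicate 1 and replicates 2 and 3 with the group in the model (right). Points are edgeR estimates with 95% intervals, and filled points passed an adjusted p of 0.05, which are 0 of 7 on the left and 3 of 7 on the right.

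Replicate 1 stood apart for some of these RNAs. In a model with the group as covariate, replicate 1 of both groups was compared with replicates 2 and 3, a contrast taken up because earlier results of these data had set replicate 1 apart. MALAT1, KCNQ1OT1 and NEAT1 passed, 3 of 7 tested RNAs, beside 9.06% of all tested genes (1997, of which 936 or 4.25% were higher in replicate 1 and 1061 or 4.81% lower). MALAT1 was higher by 1.28 on the log2 scale with a standard error of 0.173 (edgeR, adjusted p = 0.00831), from a mean of 412 CPM in replicates 2 and 3 to 1028 CPM in replicate 1. KCNQ1OT1 was higher by 1.00 with a standard error of 0.122 (edgeR, adjusted p = 0.00663), from 9.32 to 18.8 CPM. NEAT1 fell by 0.50 with a standard error of 0.121 (edgeR, adjusted p = 0.046), from 476 to 336 CPM. For the same 3 RNAs replicate 1 did not overlap the other 4 libraries, beside 32.4% of all tested genes.

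The other 4 were NORAD at -0.22 (adjusted p = 0.247), PVT1 at 0.14 (adjusted p = 0.405), OIP5-AS1 at 0.02 (adjusted p = 0.921) and TUG1 at -0.01 (adjusted p = 0.955), all by edgeR. When replicate 2 or replicate 3 took the place of replicate 1 in the model, edgeR called 0 genes and 0 of the 7 RNAs. At an unadjusted p under 0.05 in edgeR's test, 191 genes (0.867%) and 273 genes (1.24%) passed. Both models keep the replicate 1 libraries in the group compared against, so few calls could arise and they are no even background. The standard error of MALAT1 was 0.437 and 0.457 in them, against 0.173 in the model of replicate 1.

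These calls were not equally firm. Without vector control replicate 3 none of the 3 passed, with adjusted p of 0.0524 for MALAT1, 0.0529 for KCNQ1OT1 and 0.113 for NEAT1 in edgeR's test. The log2 fold changes there were 1.15, 0.97 and -0.58, so their sizes changed little. MALAT1 also fell just short of a call without METTL3-overexpressing replicate 2 (edgeR, adjusted p = 0.0518), and the call of NEAT1 was lost without any of the 4 libraries of replicates 2 and 3, with adjusted p from 0.102 to 0.113 in edgeR's test. KCNQ1OT1 had a log2 fold change of only 0.17 (edgeR, adjusted p = 0.235) when the dependence of its library values on GC content and length of transcripts was taken out. Only 3 of 62700 annotated genes have a longer transcript than its 91667 bases, so the correction there rests on few genes. MALAT1 remained at 1.30 and NEAT1 at -0.67 under that correction.

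Replicate 1 also differed in RNAs that lack a poly(A) tail. Of 42 such transcripts, replication-dependent histone mRNAs and short structured RNAs, 28 were tested. In replicate 1, 10 were higher and 0 lower, or 35.7%, beside 9.06% of all tested genes. Their median log2 fold change was 0.58 beside 0.04 over all genes. Whether the reads counted for them came from forms without a tail was not measured. RN7SL1, the RNA of the signal recognition particle, rose by 2.10 (edgeR, adjusted p = 0.00509), from 32.1, 23.9, 27.0 and 20.8 CPM in the other libraries to 84.1 CPM in METTL3-overexpressing and 141 CPM in vector control replicate 1. Its count is uncertain because the genome holds near-identical copies. The linker histone gene H1-2 rose by 0.76 (edgeR, adjusted p = 0.00703) and H2AC6, a core histone gene, by 0.70 (edgeR, adjusted p = 0.00758). Summed over 34 histone genes, replicate 1 reached 96.1 CPM in METTL3-overexpressing and 87.0 CPM in vector control cells, and the other libraries lay between 54.4 and 61.1 CPM. RN7SL1 had the same order as MALAT1 at the top, with vector control replicate 1 above METTL3-overexpressing replicate 1, whereas the histone sum and KCNQ1OT1 were higher in the METTL3-overexpressing one. The part of poly(A) selection or RNA quality in the change of MALAT1, KCNQ1OT1 and NEAT1 was not tested.

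**Figure D4:**
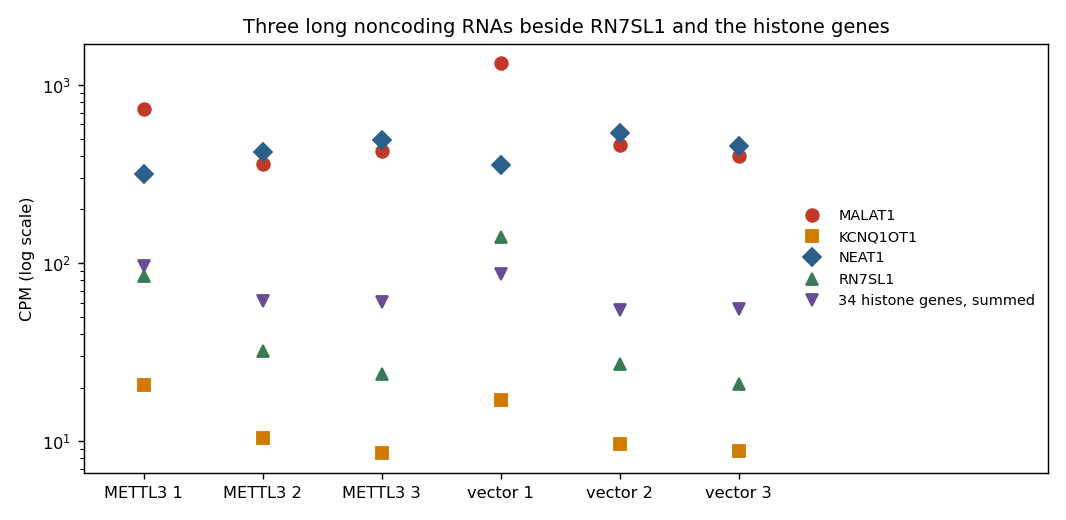
CPM on a log axis of MALAT1, KCNQ1OT1, NEAT1, RN7SL1 and the sum of 34 histone genes in the 6 libraries, 3 METTL3-overexpressing and 3 vector control. MALAT1, KCNQ1OT1, RN7SL1 and the histone sum are highest in the replicate 1 libraries and NEAT1 is lowest there.

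Of 4502 tested genes of the type lncRNA 213 were higher and 82 lower in replicate 1, or 6.55%, beside 9.06% of all tested genes. Their median log2 fold change was 0.21, beside 0.04 over all genes. Among 31 tested of 37 other listed long noncoding RNAs 3 were higher and 2 lower, or 16.1%. LINC00511 rose by 0.67 (edgeR, adjusted p = 0.00822), and CRNDE fell by 0.77 (edgeR, adjusted p = 0.0126) and HOTAIR, a long noncoding RNA of the HOXC cluster, by 0.69 (edgeR, adjusted p = 0.0261).

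The partners of these RNAs were read from the same fit. Among 19 tested neighbours and antisense partners 0 were higher and 3 lower in replicate 1, or 15.8%, beside 9.06% of all tested genes. Of these, PHLDA2 fell by 0.59 (edgeR, adjusted p = 0.0192) and CDKN1C, a cyclin-dependent kinase inhibitor, by 0.70 (edgeR, adjusted p = 0.0317). Both are imprinted genes of the KCNQ1 domain, in which KCNQ1OT1 was higher and KCNQ1 itself was at 0.33 (edgeR, adjusted p = 0.498). With the GC and length trend removed, KCNQ1OT1 was at 0.17, PHLDA2 at -0.64 and CDKN1C at -0.69. A link between KCNQ1OT1 and these genes was not tested. PHLDA2 had 52.6 CPM in METTL3-overexpressing and 50.9 CPM in vector control replicate 1, against 70.3 to 88.5 CPM in the other libraries. SLC22A18, another imprinted gene there, was at 0.14 (edgeR, adjusted p = 0.589). MORC2, next to TUG1, fell by 0.45 (edgeR, adjusted p = 0.0338), and MYC, next to PVT1, was at -0.06 (edgeR, adjusted p = 0.718).

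Of the 16 paraspeckle proteins, which assemble on NEAT1, 0 were higher and 1 was lower in replicate 1, or 6.25%, beside the same background. RBM14 fell by 0.52 (edgeR, adjusted p = 0.0225). The core proteins NONO and SFPQ were at -0.21 and -0.05 (edgeR, adjusted p = 0.227 and 0.803). Of 4 NORAD-binding proteins 0 passed, and PUM2 was at -0.20 (edgeR, adjusted p = 0.204). Of 12 tested subunits of RNase P and RNase Z, the enzymes that cut the ends of MALAT1, 1 was higher and 0 lower, or 8.33%. RPP14, an RNase P subunit, rose by 0.47 (edgeR, adjusted p = 0.0436). That call was lost with DESeq2 size factors (edgeR, adjusted p = 0.0517), with no filter on low counts (edgeR, adjusted p = 0.0502) and without any of the 4 libraries of replicates 2 and 3 (edgeR, adjusted p from 0.137 to 0.161). Of 18 factors of nuclear RNA decay 0 were higher and 1 lower, the exosome adaptor ZFC3H1, which fell by 0.45 (edgeR, adjusted p = 0.0292), or 5.56%. Leaving out any of the 4 libraries of replicates 2 and 3 also ended the calls of PHLDA2, CDKN1C, MORC2, RBM14, ZFC3H1, HOTAIR and CLDN7, with adjusted p from 0.0532 for PHLDA2 to 0.152 for CLDN7 in edgeR's test. Without METTL3-overexpressing replicate 2 or vector control replicate 3 the calls of LINC00511, H1-2 and H2AC6 were lost, and without the latter that of CRNDE (edgeR, adjusted p from 0.055 to 0.073).

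Of the 8 epithelial markers 1 was higher in replicate 1 and 0 lower, the tight junction gene CLDN7, which rose by 0.52 (edgeR, adjusted p = 0.0319). The 8 sum to 8494, 7629 and 7427 CPM in METTL3-overexpressing and 9356, 6132 and 6022 CPM in vector control replicates. Of 10 markers of other cell types 4 were tested and 0 passed, and all 10 sum to between 18.04 and 19.1 CPM in METTL3-overexpressing and between 9.01 and 18.7 CPM in vector control libraries. The part of these differences in the changes of the long noncoding RNAs was not tested. Between METTL3-overexpressing and vector control libraries 0 genes of these lists passed. At an unadjusted p under 0.05 there were 2 neighbours higher, 2 other long noncoding RNAs lower, 1 transcript without a tail lower, 1 epithelial marker higher, and 0 in the lists of paraspeckle, NORAD-binding, RNase and decay genes.

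Whether the METTL3 difference was the same in replicate 1 as in replicates 2 and 3 was tested as an interaction, which leaves 2 residual degrees of freedom. Replicate 1 is 1 library per group, so the term sets the difference between 2 single libraries against the spread of the other 4. It ignores any pairing of replicates 2 and 3, which no label states. MALAT1, NORAD and TUG1 passed, 3 of 7 RNAs, which is near the background of 30.2% of all tested genes and 41.1% of protein-coding genes and is no result particular to these RNAs. Of all tested genes 6652 passed, 3242 or 14.7% positive and 3410 or 15.5% negative. MALAT1 was 0.84 lower on the log2 CPM scale with METTL3 than with the vector in replicate 1, against -0.36 in replicate 2 and 0.10 in replicate 3. The interaction was -0.71 with a standard error of 0.155 (edgeR, adjusted p = 0.00752). With libraries matched by number, the differences of MALAT1 in replicates 2 and 3 lay about as far apart as those in replicates 1 and 2. On that match replicate 1 did not stand apart. NORAD differed by 0.40, 0.10 and 0.09 in replicates 1, 2 and 3, with an interaction of 0.31 and a standard error of 0.0832 (edgeR, adjusted p = 0.0134). TUG1 was higher with METTL3 by 0.34 in replicate 1 and at -0.09 in both replicates 2 and 3, with an interaction of 0.43 and a standard error of 0.0925 (edgeR, adjusted p = 0.00337).

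For OIP5-AS1 the differences were -0.00047, 0.20 and 0.10, and the interaction was -0.15 (edgeR, adjusted p = 0.249). KCNQ1OT1 was at 0.28, 0.12 and -0.04, with an interaction of 0.24 (edgeR, adjusted p = 0.345), NEAT1 at -0.17, -0.36 and 0.11, with -0.04 (edgeR, adjusted p = 0.881), and PVT1 at -0.14, -0.20 and -0.05, with -0.02 (edgeR, adjusted p = 0.928). PVT1 was thus lower with METTL3 in each replicate number and NORAD higher in each. The interaction intervals of KCNQ1OT1 and NEAT1, which differed between replicate 1 and the rest, ran from -0.13 to 0.60 and from -0.41 to 0.32. KCNQ1 had an interaction of 1.41 (edgeR, adjusted p = 8.0e-05). METTL3 itself had an interaction of -0.36 (edgeR, adjusted p = 0.0103), so its own excess was smaller in replicate 1.

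**Figure D5:**
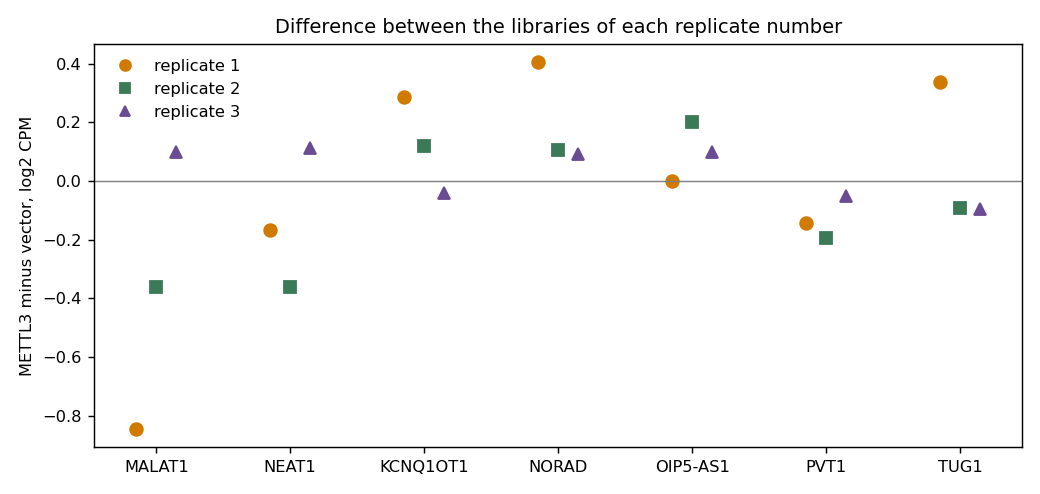
METTL3-overexpressing minus vector control, in log2 CPM, for the 7 tested RNAs within replicate 1 (orange circles), 2 (green squares) and 3 (purple triangles). The replicate 1 circle lies at -0.84 for MALAT1, 0.40 for NORAD and 0.34 for TUG1, and the 3 points of MALAT1 are spread out evenly.

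The genes with the most similar profile over the 6 libraries were found by the root mean square distance of log2 CPM, each centred on its own mean, among the 10030 other genes with at least 10 CPM. For NORAD the nearest was TMEM185B at a distance of 0.00505, with 148, 155, 153, 112, 145 and 143 CPM in METTL3-overexpressing replicates 1 to 3 and vector control replicates 1 to 3, and then AMMECR1L at 0.0161. The spread of NORAD about its own mean was 0.161, and 782 genes lay within a distance of 0.1 of it. MALAT1 had no gene that close. Its nearest were S100P at 0.22 and PSMB9 at 0.238, beside a spread of its own of 0.654. For KCNQ1OT1 they were QPRT at 0.121 and CD24 at 0.127, for NEAT1 KRI1 at 0.0653 and TBCCD1 at 0.0659, and for TUG1 CES2 at 0.0234 and LRP6 at 0.0278. OIP5-AS1 was nearest to SELENOI at 0.0176 and LTN1 at 0.0202, and PVT1 to NFKBIL1 at 0.0336 and SMCO4 at 0.0345. Among the RNAs themselves the closest pair were NORAD and TUG1 at 0.127, and the farthest were MALAT1 and NEAT1 at 0.854. All points share the same 6 libraries, so likeness here is a description.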

How the data were processed

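The authors trimmed reads with fastp, aligned them with HISAT2 to hg38 (GRCh38) and counted them per gene with featureCounts of Subread, per the labels, and deposited raw counts, not normalized. Versions and strand setting are not given in the sources used here, and the labels and the study's methods differ on the library kit and on paired reads. Gene names, lengths and sequences came from GENCODE 44 (GRCh38), which named 60463 of 60649 rows. The 22038 genes left by edgeR's filterByExpr (edgeR 4.0.16, R 4.3.3) were scaled by TMM and tested with glmQLFit (robust) and glmQLFTest, Benjamini-Hochberg threshold 0.05. A standard error is the fold change (log2, its size) divided by the root of F. DESeq2 1.42.0 was an alternative, and limma 3.58.1 was loaded with edgeR. Trends with GC content and length were splines with 5 degrees of freedom.

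The members, the gene lists (neighbours and antisense partners, paraspeckle, NORAD-binding, RNase P and RNase Z, decay, other long noncoding RNAs, transcripts without a tail, epithelial and other markers) and the tests were chosen with earlier results of these data known. Named genes are the 8 members, METTL3, genes overlapping a member, at most 3 passing genes per list and comparison with the smallest adjusted p at 1 CPM or more, and the 2 nearest profiles of each member. SLC22A18, MYC, NONO, SFPQ and PUM2 were named as known partners after their values were seen. The replicate numbers are shared by the groups. Deviations of same-numbered libraries from their group means correlated at 0.357, 0.252 and 0.272 over 22038 genes, above the minimum of 0.1, so the numbers were taken to pair libraries. No label states this pairing, and libraries of different number reached 0.382. Functions were tested on simulated counts with 200 genes changed by a fold of 4. For METTL3 against vector edgeR recovered 84.5% of them among 21667 genes, and 5.06% of its calls were unchanged genes. For replicate 1 against replicates 2 and 3 it recovered 76.5% among 21649 (10.5% of calls unchanged), and for the interaction only 39% among 21660 (10.3% of calls unchanged). DESeq2 recovered 86%, 81% and 56% in the same order. Unchanged genes made up 23.9%, 28% and 32.9% of its calls, more than for edgeR in these simulated counts. The counts were drawn independently for each gene and library. The share of false calls in the real libraries was therefore not measured for either tool.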

Additional observations from a re-analysis of the deposited data

Results flagged for a closer look

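The interaction term of edgeR's quasi-likelihood test, which sets the METTL3 difference in replicate 1 against that in replicates 2 and 3, passed for MALAT1, NORAD and TUG1. It was -0.71 for MALAT1 (adjusted p = 0.00752), 0.31 for NORAD (adjusted p = 0.0134) and 0.43 for TUG1 (adjusted p = 0.00337) on the log2 scale, and passed in each of the 6 alternatives run. Replicate 1 is 1 library per group, and 30.2% of all tested genes passed as well, so these values describe these libraries and are no result particular to the 3 RNAs.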

How the results depend on the processing

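Counts were high for all but MEG3, so depth limits only that RNA. For METTL3 against vector, 0 of the 7 RNAs passed under any of the 15 alternatives, and the replicate block changed no call (0 genes with the block). Over all genes the count of 0 became 283 with DESeq2, 560 with no filter, 1 with the GC and length trend removed, 3362 with replicates 2 and 3 only, and 0 to 367 without 1 library (367 without vector control replicate 1). For replicate 1 against replicates 2 and 3 the count of 1997 became 3543 with DESeq2, 4220 with no filter, 3313 with the trend removed and 233 to 9028 without 1 library, and the count of 3 RNAs became 0 to 5 without 1 library. It was 5 without METTL3-overexpressing replicate 1, when NORAD (-0.41) and TUG1 (-0.28) also passed, 1 without METTL3-overexpressing replicate 2 and 0 without vector control replicate 3. With upper-quartile factors NEAT1 did not pass (edgeR, adjusted p = 0.0594). Levels per length moved with the longest transcript to 14.4 (OIP5-AS1), 7.48 (PVT1) and 44.1 RPKM (TUG1). The cause of these shifts was not tested.

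Directions turned for small values. For METTL3 against vector, values without 1 library ran from -0.86 to 0.24 for MALAT1, -0.28 to 0.039 for NEAT1, -0.28 to 0.52 for KCNQ1OT1 and -0.025 to 0.13 for TUG1. KCNQ1OT1 was -0.26 with the trend removed, and TUG1 was -0.095 in replicates 2 and 3 only. For replicate 1 against replicates 2 and 3, they ran from -0.061 to 0.050 for OIP5-AS1 and -0.28 to 0.19 for TUG1, which passed at 0.19 without vector control replicate 1 (edgeR, adjusted p = 0.0444). OIP5-AS1 was -0.015 with DESeq2 and with its size factors, and -0.025 with no filter. PVT1 was -0.022 and TUG1 0.013 with the trend removed, and TUG1 0.040 with upper-quartile factors. In the interaction, NEAT1 was 0.0026 with at least 10 counts in every library and 0.0013 with counts divided by 2. PVT1 was 0.013 with DESeq2 and with its size factors, 0.0091 with upper-quartile factors, 0.017 with no filter, 0.023 with at least 10 counts and 0.022 with counts divided by 2. No call changed in that comparison.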
